A study of Mus musculus with 6 samples.

Results

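Transcripts of 5 genes around an inhibitory receptor pathway were followed in mouse thymic dendritic cells (DCs). They were Sirpa, Cd47, Cd300a, Ptpn6 and Ptpn11, found by gene symbol among 23420 gene rows. All 5 were present and passed the filter on low counts that left 8141 genes for testing. The 6 libraries, 2 per group, came from wild-type mice and from cells sorted by flow cytometry. The first group held plasmacytoid DCs (pDCs, low CD11c and positive for B220) that carried yellow-green (YG) fluorescent microspheres. Their donors bore subcutaneous MC38 tumours, a mouse colon carcinoma line, for 12 days before microspheres were injected in the tumour, and thymic cells were taken 2 days later. From PBS-treated mice came a group of pDCs and a group of Sirpa+ DCs, gated on high CD11c and on Sirpa. All 6 libraries are labelled with 2 weeks of treatment and with the same batch. Tumour, injected material and YG gate cannot be told apart in YG+ pDCs, and the labels do not tell whether the pair of libraries in a group stems from different mice. The p-values therefore reflect a library-to-library spread that may be technical.

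SIRPA is a receptor of macrophages, granulocytes and several DC types, and its cytoplasmic tail carries immunoreceptor tyrosine-based inhibitory motifs (ITIMs). When it binds CD47, a surface protein of most cells, the tyrosines of the tail are phosphorylated and recruit the phosphatases SHP1 (encoded by Ptpn6) and SHP2 (encoded by Ptpn11), which restrains engulfment of the CD47-bearing cell. CD300A is another ITIM receptor, binds lipids exposed by dying cells and uses the same phosphatases. Sirpa was the protein on which 1 of the groups was sorted, so its RNA difference from that group describes the sort and is no finding of its own.

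The 2 receptor genes and the ligand gene differ in whether they encode such a motif. In the longest GENCODE M21 coding sequence of each gene, the last 120 codons held 3 ITIM matches in Sirpa, 2 in Cd300a and 0 in Cd47. Each phosphatase gene had 1 match. Across 21504 coding genes, 49.2% had a match anywhere and 4.49% had at least 2 within the last 120 codons. The 18 bases that encode each receptor match are printed to show the part of the transcript that encodes the motif, with the tyrosine codon in capitals and its codon number counted from the start codon.
Sirpa codon 440: atcacaTACgcagacctg
Sirpa codon 481: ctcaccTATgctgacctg
Sirpa codon 505: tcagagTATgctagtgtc
Cd300a codon 262: gtggaaTATagcacattg
Cd300a codon 274: cttcacTATtcatccgtg
A sequence match is a description and does not show that a tyrosine was phosphorylated in these cells.

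The number of reads in genes limits what can be said of the 2 scarcer genes. Of uniquely placed reads, 0.842% to 3.36% fell in genes, which left gene totals of 177844 to 713966 per library. Both were lowest in PBS pDC replicate 1, where a single read was worth 6.38 CPM. CPM here is the read count scaled to the library's effective size, its reads in tested genes times a scaling factor. The PBS pDC pair had the lowest Pearson correlation across genes on log2 CPM, 0.726 against 0.934 for the YG+ pDC pair and 0.855 for the Sirpa+ DC pair. Of 12 listed pDC markers, 10 were higher in all 4 pDC libraries than in both Sirpa+ DC libraries, 1 overlapped and 1 was lower. Of 11 markers of Sirpa+ conventional DCs besides Sirpa, 4 were lower in all pDC libraries, 2 were higher and 5 overlapped. The pDC lectin gene Siglech was 670.0 to 1059 CPM in the 4 pDC libraries and 43.9 to 46.5 CPM in Sirpa+ DCs. Itgax, which encodes CD11c, averaged 524 CPM in Sirpa+ DCs, 221 in the YG+ group and 213 in PBS pDCs. Ptprc, the gate gene for B220, did not separate the sorts. It was 816 and 981 CPM in YG+ pDCs and 237 and 512 CPM in Sirpa+ DCs. In PBS pDCs it was 185 CPM (29 reads) in replicate 1, below both Sirpa+ DC libraries, and 1011 CPM in replicate 2.

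Sirpa (chromosome 2, 129592835 to 129632228, GRCm38) was not restricted to the cells sorted on its protein. Its level was 575 and 748 CPM in the Sirpa+ DC libraries, 392 and 306 CPM in the YG+ pDC libraries, and 198 and 319 CPM in the PBS pDC libraries. Both Sirpa+ DC libraries lay above all 4 pDC libraries, and the YG+ and PBS pDC libraries overlapped. Even the lowest library, PBS pDC replicate 1, held 31 Sirpa reads (95% exact Poisson interval 134 to 281 CPM, counting error only). The group means were 662 ± 122 CPM in Sirpa+ DCs, 349 ± 60.8 CPM for the YG+ group and 259 ± 86.0 CPM for PBS pDCs (SD, n = 2 each). Against Sirpa+ DCs, the log2 fold change was -1.34 in PBS pDCs (95% interval -2.30 to -0.38, adjusted p = 0.0754, edgeR quasi-likelihood test) and -0.92 in YG+ pDCs (-1.86 to 0.01, adjusted p = 0.226). The former was -1.05 without PBS pDC replicate 1 and -1.80 without PBS pDC replicate 2, which left only the library with the fewest reads in that group. Between YG+ and PBS pDCs the log2 fold change was 0.41 (-0.54 to 1.36, adjusted p = 0.763). The genes of its own family were nearly silent, with 3 reads over all libraries for Sirpb1a and 0 for Sirpb1b, and no stretch of 50 bases of Sirpa transcripts was found in transcripts of another gene.

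Cd47 (chromosome 16, 49800533 to 49915010), the ligand gene, was expressed in every library. It had the narrowest range of the 5 genes as a ratio of the highest to the lowest library. It measured 407 and 385 CPM in YG+ pDCs, then 395 and 437 CPM in PBS pDCs, and 250 and 339 CPM in Sirpa+ DCs. All 4 pDC libraries lay above both Sirpa+ DC libraries, with little distance between the lowest pDC and the highest Sirpa+ DC library. The means were 416 ± 29.6 CPM in PBS pDCs, 396 ± 16.0 CPM in YG+ pDCs and 294 ± 63.1 CPM in Sirpa+ DCs (SD, n = 2). Neither pDC group was called different from Sirpa+ DCs: the log2 fold change was 0.50 in PBS pDCs (95% interval -0.39 to 1.38, adjusted p = 0.515, edgeR) and 0.42 in YG+ pDCs (-0.45 to 1.30, adjusted p = 0.574). Between YG+ and PBS pDCs it was -0.07 (95% interval -0.95 to 0.80, adjusted p = 0.964), with overlapping libraries.

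Set against each other within a library, receptor and ligand transcripts had different balances in the sorts. Per kilobase of exon, Sirpa was 2.95 and 2.82 times Cd47 in the Sirpa+ DC libraries. The same ratio was 1.23 and 1.02 in YG+ pDCs and 0.639 and 0.933 in PBS pDCs. The ratio does not depend on library scaling, and its values did not overlap between any pair of groups. How often other gene pairs do so was not tested. The 95% exact binomial intervals cover counting error only. Those of the Sirpa+ DC libraries (2.15 to 4.07 and 2.35 to 3.40) lay above those of all pDC libraries, the highest of which ended at 1.45. Intervals of the pDC groups overlapped, as for YG+ pDC replicate 2 (0.827 to 1.25) and PBS pDC replicate 2 (0.744 to 1.17). With 2 libraries against 2, the two-sided exact permutation test cannot go below p = 0.333, which is the value it gave for each pair of groups. Of 15 such ratio comparisons, 5 ratios in 3 pairs of groups, none could pass a threshold of 0.05 before or after adjustment. Because Sirpa protein set the sort, the contrast with Sirpa+ DCs again describes the gate.

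**Figure D1:**
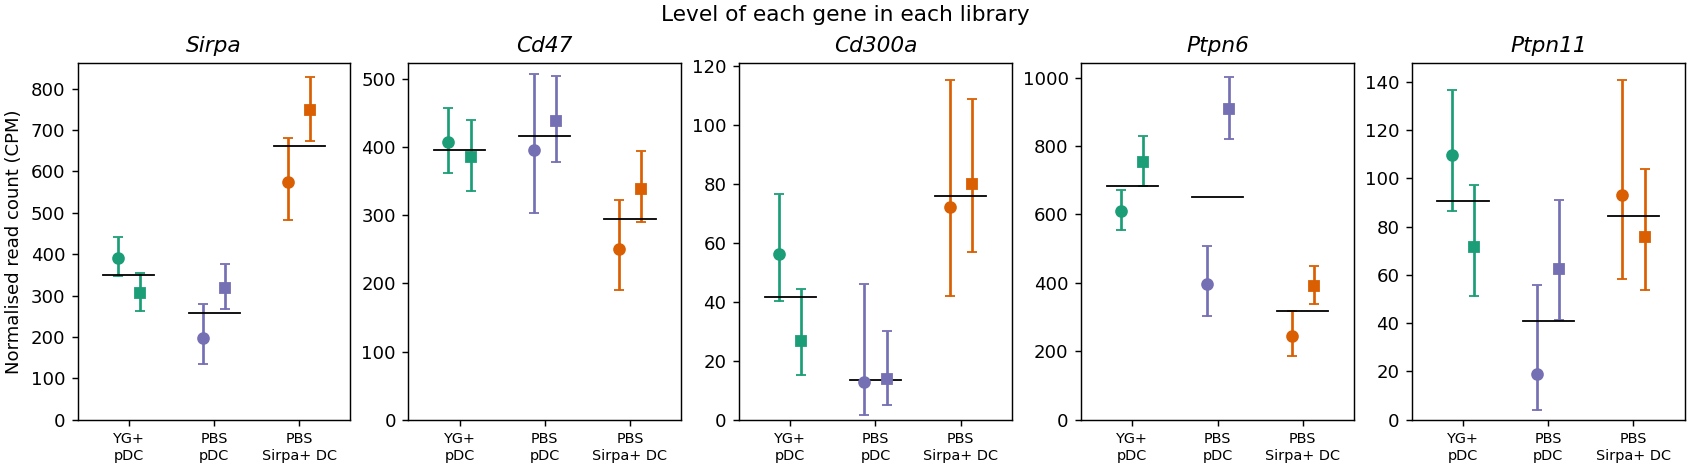
Normalised read count (CPM, linear axes from 0) of the 5 genes in each library. Circles are replicate 1 and squares replicate 2 of a group, whiskers are 95% exact Poisson intervals (counting error only) and black lines are group means. Sirpa and Cd300a were highest in PBS Sirpa+ DCs, whereas Cd47 was highest in pDC libraries, and Ptpn6 split the PBS pDC libraries at 395 and 907 CPM.

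Cd300a (chromosome 11, 114890041 to 114904654) was the only member called in any comparison. It was lower in PBS pDCs than in Sirpa+ DCs, with 12.8 and 13.9 CPM in the PBS pDC libraries against 71.9 and 79.7 CPM in the Sirpa+ DC libraries. The YG+ pDC libraries were in between at 56.2 and 26.8 CPM, and no 2 groups overlapped. Depending on the pair of groups, 45.8% to 62.0% of all tested genes did not overlap. These levels rest on few reads, 2 and 6 in PBS pDCs, 40 and 15 in YG+ pDCs, and 17 and 40 in Sirpa+ DCs. The 95% exact Poisson interval of PBS pDC replicate 1, 1.54 to 46.1 CPM, overlapped those of YG+ pDC replicate 2 (15.0 to 44.3 CPM) and Sirpa+ DC replicate 1 (41.9 to 115 CPM). The means were 13.3 ± 0.797, 41.5 ± 20.8 and 75.8 ± 5.53 CPM (SD, n = 2), a log2 fold change of -2.47 ± 0.63 (SE; 95% interval -3.86 to -1.08, adjusted p = 0.0286, edgeR) in PBS pDCs against Sirpa+ DCs. In that comparison 11.4% of all tested genes were called, so 1 of 5 members is a share to be read against that background. The call ended with limma-voom (adjusted p = 0.0630), without PBS pDC replicate 2 (0.0692) and without Sirpa+ DC replicate 1 (0.0957) or replicate 2 (0.154), while the log2 fold change stayed between -2.61 and -2.35 over all 15 alternatives.

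In YG+ pDCs, Cd300a was 3.06 times its fitted level in PBS pDCs (95% interval 1.16 to 8.07), a log2 fold change of 1.61 that did not pass (adjusted p = 0.374, edgeR). It was 0.99 without YG+ pDC replicate 1 and 2.07 without replicate 2. The share of all genes called in that comparison was 0%, with 929 of 8141 at an unadjusted p under 0.05, and limma-voom also called 0 while DESeq2 called 45. Against Sirpa+ DCs, where 7.16% of genes were called, Cd300a in YG+ pDCs had a log2 fold change of -0.86 (-1.95 to 0.24, adjusted p = 0.342), which was -1.51 without YG+ pDC replicate 1 and -0.44 without replicate 2. None of the 5 members was called there. Sirpa and Cd300a had their highest level in the same group and their lowest in the same library, PBS pDC replicate 1, but the Sirpa to Cd300a ratio was not constant. Per kilobase it was 7.72 and 9.04 in Sirpa+ DCs, 8.86 ± 3.02 in YG+ pDCs (SD, n = 2), and 15.0 and 22.2 in PBS pDCs. The intervals of the PBS pDC ratios were wide, 3.81 to 129 and 9.94 to 61.5, because of the low Cd300a counts.

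Summed markers of macrophages, which express both receptors, had the same order of groups as Cd300a. Of 12 listed macrophage genes, 11 were in the files, and their summed level was 3944 to 6316 CPM in Sirpa+ DCs, 743 to 1912 CPM in the YG+ group and 208 to 364 CPM among PBS pDCs. In PBS pDCs 8 of the 11 were detected, with Mertk and Fcgr1 at 0 in both libraries, and all 11 were detected in the other groups. Of the 11, 8 were lower in all pDC libraries than in both Sirpa+ DC libraries and 3 overlapped. The 8 genes outside the pathway lists below summed to 3334 to 5441, 633 to 1648 and 197 to 338 CPM in the same order of groups. Within the YG+ pDCs, replicate 1 had both the higher macrophage sum (1912 against 743 CPM) and the higher Cd300a level. Within PBS pDCs, replicate 1 had the higher sum (364 against 208 CPM) but the lower Cd300a level (12.8 against 13.9 CPM). Mature DC markers summed to 5285 to 6567 CPM in Sirpa+ DCs, 1510 to 1937 CPM in the YG+ group and 683 to 785 CPM among PBS pDCs, with Anxa3 at 0 in PBS pDCs and 8 of 8 detected elsewhere. Conventional DC type 1 markers followed the same order, at 632 to 639, 239 to 274 and 134 to 176 CPM, with Batf3 at 0 in PBS pDCs and 8 of 8 detected elsewhere. Markers of Sirpa+ conventional DCs, Sirpa itself left out, summed to 1384 to 1820, 1329 to 1428 and 887 to 1277 CPM, with 11 of 11, 10 and 10 detected and Clec4a4 at 0 in both pDC groups. The part of these cells in the Cd300a and Sirpa values was not tested. In bulk samples, fewer cells of a type and less RNA per cell cannot be told apart.

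Ptpn6 (chromosome 6, 124720707 to 124738714), which encodes SHP1, the phosphatase of blood cells, was the most abundant member per kilobase in all 4 pDC libraries. In both Sirpa+ DC libraries Sirpa exceeded it, by 1.34 and 1.09 times per kilobase, whereas in pDC libraries the Sirpa to Ptpn6 ratio was 0.201 to 0.366. Its level was 611 and 753 CPM in YG+ pDCs, then 395 and 907 CPM in PBS pDCs, and 245 and 391 CPM in Sirpa+ DCs. The pDC libraries all lay above the Sirpa+ DC libraries, but PBS pDC replicate 1 did so by a margin of a few CPM, and the PBS pDC pair was the most widely spread of any group. The means were 682 ± 101, 651 ± 362 and 318 ± 103 CPM (SD, n = 2). Relative to Sirpa+ DCs, the log2 fold change was 1.04 in PBS pDCs (95% interval -0.05 to 2.12, adjusted p = 0.230, edgeR) and 1.09 ± 0.49 in YG+ pDCs (SE; adjusted p = 0.216). Without PBS pDC replicate 1, these became 1.50 (adjusted p = 0.0177) and 1.07 (0.0396), both past the threshold, and without PBS pDC replicate 2 they were 0.24 (0.752) and 1.07 (0.0478). YG+ and PBS pDCs had a log2 difference of 0.05 (-1.01 to 1.12, adjusted p = 0.981) and 0.82 without PBS pDC replicate 2. RLE scaling (DESeq2's size factors) moved it to -0.0072 while it moved the median of all genes from 0.08 to 0.01. An antisense gene, Gm20531, with which 5.01% of 50-base stretches are shared, covers 6.96% of the exon length of Ptpn6 and has no row in the files, so reads from it cannot be told apart from Ptpn6 there.

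Ptpn11 (chromosome 5, 121130533 to 121191397), which encodes SHP2, a phosphatase of most cell types that also carries signals from growth factor receptors to Ras, was far scarcer. It stood at 110 and 71.6 CPM in YG+ pDCs, then 19.1 and 62.5 CPM in PBS pDCs, and 93.1 and 75.8 CPM in Sirpa+ DCs. Both PBS pDC libraries were below the other 4, which overlapped. The lowest value, in PBS pDC replicate 1, was 3 reads, with an interval of 3.95 to 55.9 CPM, and its partner held 27. With means of 90.6 ± 26.9, 40.8 ± 30.6 and 84.4 ± 12.3 CPM (SD, n = 2), the log2 fold change was -0.86 in PBS pDCs against Sirpa+ DCs (95% interval -2.05 to 0.34, adjusted p = 0.386, edgeR). It was 0.98 in YG+ against PBS pDCs (-0.17 to 2.13, adjusted p = 0.513) and 0.12 in YG+ pDCs against Sirpa+ DCs (-0.95 to 1.20, adjusted p = 0.909). Leaving out PBS pDC replicate 2, so that the 3-read library stood alone, moved the first to -2.15 and the second to 2.27 without a call.

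The balance of the 2 phosphatase transcripts varied in level among the libraries but not in order. Ptpn6 exceeded Ptpn11 per kilobase in all 6 libraries, by 7.05 and 13.8 times in Sirpa+ DCs, 14.9 and 28.1 times in YG+ pDCs, and 55.3 and 38.8 times in PBS pDCs. No groups overlapped, although the YG+ pDC library with the lower ratio was close to the Sirpa+ DC library with the higher. The mean ratios were 10.4 ± 4.77, 21.5 ± 9.36 and 47.0 ± 11.6 (SD, n = 2), and the exact permutation p was 0.333, the smallest possible, for each pair of groups. The interval of PBS pDC replicate 1, 18.1 to 275, covered the values of both YG+ pDC replicate 2 and PBS pDC replicate 2.

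**Figure D2:**
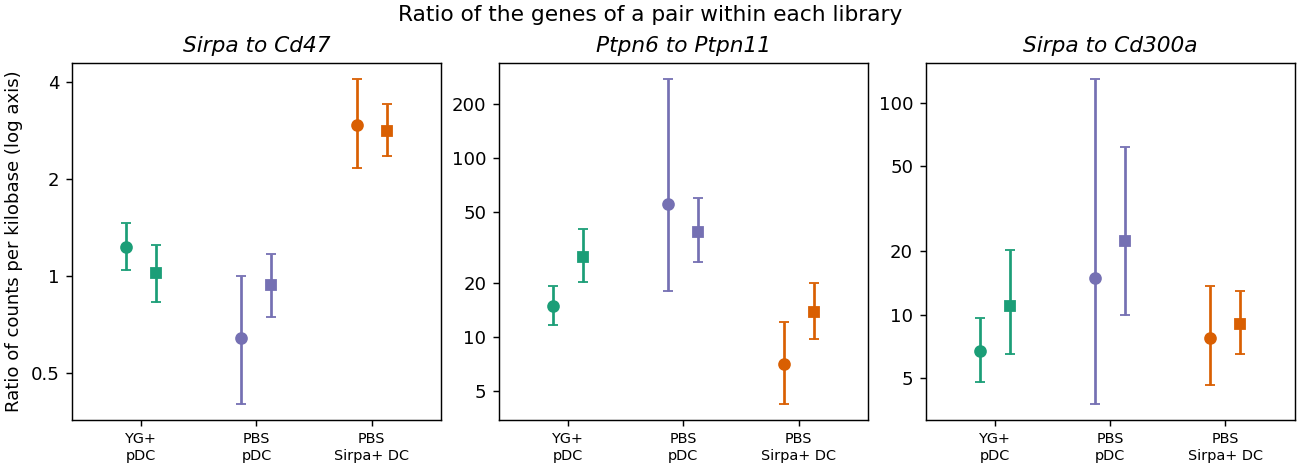
Ratio of 2 genes' counts per kilobase of exon within each library, on log axes, with circles for replicate 1 and squares for replicate 2. Whiskers are 95% exact binomial intervals (counting error only). Sirpa to Cd47 was 2.82 and 2.95 in PBS Sirpa+ DCs and 0.639 to 1.23 in pDC libraries, while Ptpn6 to Ptpn11 ran from 7.05 in a Sirpa+ DC library to 55.3 in a PBS pDC library.

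Seen over the 3 groups, the members fell into different orders. Sirpa and Cd300a were highest in Sirpa+ DCs and lowest in PBS pDCs, Cd47 was highest in PBS pDCs, Ptpn6 was lowest in Sirpa+ DCs and Ptpn11 was lowest in PBS pDCs. All 5 separated PBS pDCs from Sirpa+ DCs without overlap, 2 higher and 3 lower, where 47.1% of all tested genes did so. Between YG+ and PBS pDCs, Cd300a and Ptpn11 did not overlap, both higher in YG+ pDCs, where 45.8% of genes did not overlap. Between YG+ pDCs and Sirpa+ DCs it was 4 of 5 against 62.0% of genes. Each group enters 2 of the comparisons, which therefore share libraries. Across the 6 libraries, which share depth and group structure, the Pearson correlation of log2 CPM was 0.902 for Sirpa with Cd300a, 0.857 for Cd47 with Ptpn6 and 0.07 for Ptpn6 with Ptpn11. The correlation of Sirpa with Cd47 was -0.624.

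**Figure D3:**
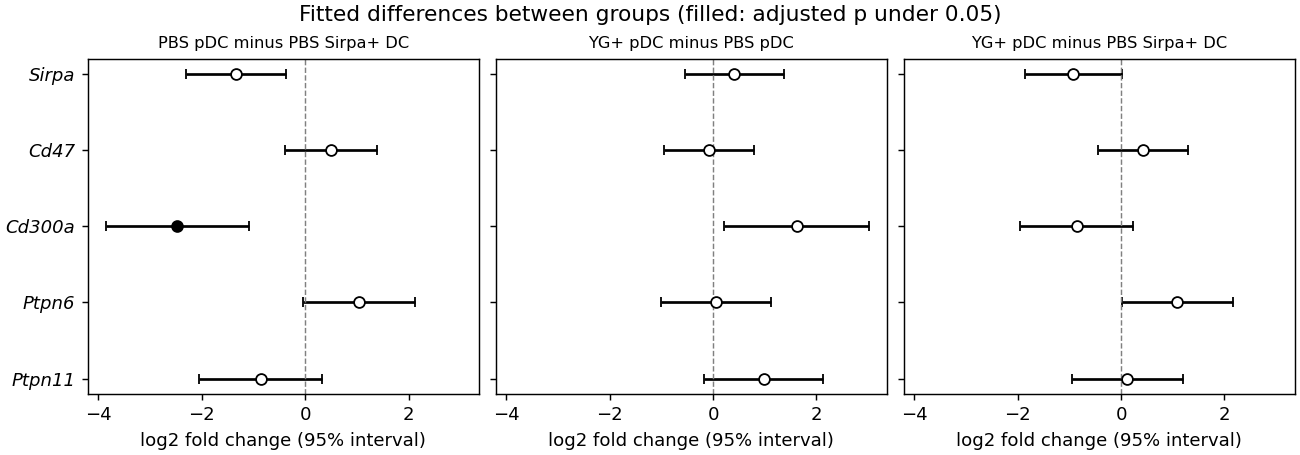
Log2 fold change of the 5 genes in the 3 comparisons, with 95% intervals from the edgeR fit. The filled point marks an adjusted p under 0.05, which Cd300a reached in PBS pDCs minus PBS Sirpa+ DCs at -2.47, and the open points did not pass.

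The genes whose pattern was most like that of each member were sought among the 6971 tested genes that averaged 20 CPM or more, by Pearson correlation of log2 CPM over the 6 libraries. For Sirpa they were Efhd2 (r = 0.999), Anxa5 (0.998) and Pvrl1 (0.994), and for Cd300a they were Itga9 (0.998), Clec4n (0.997) and Cd86 (0.995). Cd86, a costimulatory ligand gene, was 255 CPM in Sirpa+ DCs, 173 CPM in the YG+ group and 94.4 CPM among PBS pDCs, the order of Cd300a over a smaller range. Itga9 and Clec4n were at 0 in both PBS pDC libraries. Tbc1d22b, Pou2f2 and Atp1b3 were closest to Cd47, Trim39, Txndc5 and Cyfip2 to Ptpn6, and Sec24b, Ubqln1 and Idh3a to Ptpn11, all at r from 0.989 to 0.997. These correlations describe 6 libraries in 3 groups and carry no test.

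Around the 5 genes, 9 lists of related pathway genes were examined, 159 genes in all without the members, of which 147 had a row and 108 were tested. In PBS pDCs against Sirpa+ DCs, 15 were higher and 19 lower, a share of 31.5% against 11.4% of all tested genes, with a median log2 fold change of 0.04 against 0.08 over all genes. The shares called given for single lists stand beside the same 11.4%. In YG+ against PBS pDCs, 0 were called by edgeR, with 15 at an unadjusted p under 0.05 and a median of 0.13 against 0.08. In YG+ pDCs against Sirpa+ DCs, 11 were higher and 4 lower, a share of 13.9% against 7.16% of all tested genes, with a median of 0.24 against 0.04. The lists were drawn up with earlier results of these samples known, so their counts describe them and are not independent evidence.

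Among other ligands and partners of CD47 and SIRPA, 1 of 8 tested genes was lower in PBS pDCs than in Sirpa+ DCs and 0 were higher (12.5% called, near the 11.4% of all genes; median -0.19). It was Thbs1, which encodes thrombospondin, a secreted protein that binds CD47, at 39.1 ± 10.2 against 159 ± 39.8 CPM (SD, n = 2; adjusted p = 0.0218, edgeR). In YG+ pDCs Thbs1 was 142 ± 27.5 CPM, a log2 fold change of 1.78 ± 0.47 (SE) over PBS pDCs that did not pass (adjusted p = 0.315). The integrin gene Itgav, a partner of CD47 on the same membrane, also had its lowest mean in PBS pDCs, at 53.6 ± 23.4 CPM. Its mean for the YG+ group, 135 ± 54.8 CPM, lay close to the 134 ± 27.8 CPM of Sirpa+ DCs, and Itgav was not called in any comparison.

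Of the CD300 family, 2 other genes were tested, and Cd300c was the reverse of Cd300a. Cd300c was higher in PBS pDCs at 37.6 ± 0.881 CPM against 3.11 ± 1.58 CPM in Sirpa+ DCs (SD, n = 2; adjusted p = 0.0248, edgeR), and was 19.2 ± 3.26 CPM in YG+ pDCs. Cd300lf, another inhibitory family member, was 46.3 CPM in PBS pDCs, 45.9 CPM in YG+ pDCs and 30.5 CPM in Sirpa+ DCs, with no call. Of Cd300a stretches of 50 bases, 3.45% also occur in other transcripts, Cd300c2 among them, so a part of family counts may be shared. The Cd300a and Cd300c differences thus went in opposite directions within 1 family, each on few reads.

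The list of other inhibitory receptors had 24 tested genes, of which 5 were higher and 4 lower in PBS pDCs than in Sirpa+ DCs (37.5% called, against 11.4% of all genes; median 0.94). Fcrla, an intracellular protein of B cells that was kept in this list although it is not a surface receptor, was 247 ± 47.9 against 4.11 ± 0.172 CPM (adjusted p = 7.81e-04, edgeR). The other higher genes were Clec1a, Klra17, Lair1 and Pecam1. Lair1 encodes a receptor for collagen and Pecam1 a receptor for adhesion between vessel and blood cells. The lower genes were Csf1r, Siglec1 and the paralogs Gp49a and Lilrb4. Csf1r, a growth factor receptor, and Siglec1, an adhesion receptor of macrophages, are not ITIM receptors either. The share called is therefore not one of inhibitory receptors alone. Whether each of the other called genes, Gp49a and Clec1a among them, encodes an ITIM was not examined. Gp49a was 6.94 ± 9.82 against 146 ± 9.03 CPM (adjusted p = 0.00518), and its counts are uncertain because it is closely similar to Lilrb4. In the list of activating adaptors and Fc receptors, 3 of 6 were higher (Siglech, Cd79a and Cd79b) and 1 lower, Fcgr3, an immunoglobulin receptor gene (66.7% called). Fcgr3 was at 0 in PBS pDCs, at least 10.5-fold below its 53.7 ± 34.0 CPM in Sirpa+ DCs, taking 3 counts in the pooled group as the limit.

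Kinases and other phosphatases of immune receptor signalling had members called in both directions. Of 13 tested kinases, 2 were higher in PBS pDCs, Blk and Lck, and 2 were lower (30.8% called, against 11.4% of all genes). Jak2, a cytokine receptor kinase, was lower at 125 ± 68.6 against 622 ± 78.4 CPM (adjusted p = 0.0140, edgeR). The kinase gene Lck, best known from T cells, averaged 61.7 ± 12.0 CPM in PBS pDCs and 5.11 ± 1.24 CPM in the other sort (0.0113). Blk, a B cell kinase, had no read in Sirpa+ DCs and 65.1 ± 29.0 CPM in PBS pDCs, which is at least 16.0-fold more. Summed B cell markers were 893 to 976 CPM in PBS pDCs and 77.8 to 195 CPM in Sirpa+ DCs, with 9 of 9 and 5 of 9 detected (Ms4a1, Pax5 and Blk at 0). This list itself holds Blk, Fcrla, Cd79a and Cd79b; its 4 genes outside the pathway lists summed to 210 to 331 CPM and 1.99 to 8.46 CPM. Summed T cell and thymocyte markers were 308 to 344 CPM in PBS pDCs and 39.9 to 76.2 CPM in Sirpa+ DCs. In each sort 7 of 10 were detected, with Cd3e and Cd3g at 0 in both. Without pathway genes such as Lck the sums were 238 to 268 CPM and 21.9 to 33.9 CPM. Most of the PBS pDC sums came from Cd8b1, at 262 and 199 CPM against 4.23 and 3.99 CPM in Sirpa+ DCs. Cd8b1 and Lck were higher in all pDC libraries than in both Sirpa+ DC libraries, and the other 8 markers overlapped. The part of B and T cells in the Blk, Fcrla, Cd79a, Cd79b and Lck values was not tested. Of 21 other immune phosphatases, 2 were higher and 3 lower (23.8% called; median -0.18). Ptprs, a receptor phosphatase of pDCs, was 979 ± 167 against 171 ± 8.78 CPM (0.00500) and was 1049 ± 210 CPM in YG+ pDCs. Ptpro, another receptor phosphatase, was 18.5 ± 9.86 against 142 ± 2.77 CPM (0.0121).

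Among SHP2 adaptors and Ras pathway genes, 3 of 18 were lower in PBS pDCs than in Sirpa+ DCs and 0 were higher (16.7% called, against 11.4% of all genes; median -0.07). Gab2, a docking protein that binds SHP2, averaged 20.5 CPM in PBS pDCs against 195 CPM in Sirpa+ DCs (log2 fold change -2.96 ± 0.63, SE; adjusted p = 0.0132, edgeR), with 69.0 ± 39.4 CPM in YG+ pDCs. Spred1, an inhibitor of Ras signalling, and Pik3r1, a subunit of phosphoinositide 3-kinase, were the others, at log2 fold changes of -2.25 and -1.70. Irs2, an insulin receptor docking protein gene, was not called in any comparison and stood at 482 ± 46.9 CPM in YG+ pDCs against 204 ± 62.3 and 237 ± 42.3 CPM in PBS pDCs and Sirpa+ DCs. Other signals for and against engulfment had 2 higher and 5 lower of 16 in PBS pDCs (43.8% called; median -0.99). Rac2, a GTPase of blood cells that drives the phagocytic cup, was higher at 857 ± 132 against 69.4 ± 20.3 CPM (0.00114), as was Cd24a, which encodes a surface protein that like CD47 restrains engulfment, at 125 ± 22.3 against 36.2 ± 14.6 CPM (0.0330). Stab1 and Mertk, receptors for dying cells, were at 0 in PBS pDCs, at least 28.4-fold and 10.2-fold below Sirpa+ DCs. In YG+ pDCs they were 57.0 ± 32.6 and 40.3 ± 44.3 CPM, with no call against PBS pDCs (adjusted p = 0.235 and 0.315).

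**Figure D4:**
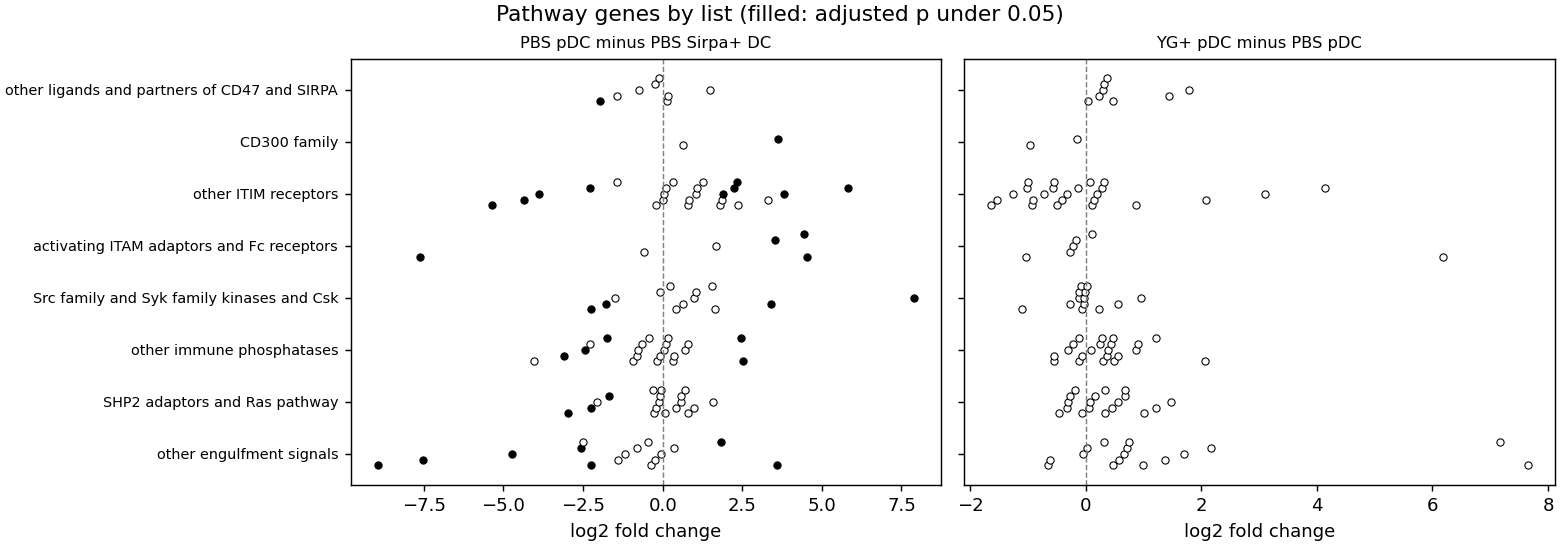
Fitted log2 fold changes of pathway genes by list in PBS pDC minus PBS Sirpa+ DC (left) and YG+ pDC minus PBS pDC (right), 1 point per gene, with the 5 members left out and points spread vertically for legibility. Filled points have an adjusted p under 0.05 and occur in the left panel only, where 15 genes were higher and 19 lower; the most extreme points are genes at 0 in a group, whose fitted values are no measure of size.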

How the data were processed

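Per the labels' protocols, RNA was isolated with TRIzol, and libraries were made from 5 ng with the Ovation SoLo kit for mouse. The deposited files hold raw read counts per gene symbol, 1 file per sample. Build mm10 and bcl2fastq 2.17 are listed per the submitters' processing notes. Aligner, counter, gene annotation and strandedness: not given in the sources used here. Summary lines that name no gene held 97.7% to 99.5% of records and were left out.

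Genes passing filterByExpr (8141) received TMM scaling factors (0.924 to 1.09) and tested with edgeR 4.0.16 (glmQLFit, glmQLFTest; R 4.3.3) in 1 fit of 6 libraries, with Benjamini-Hochberg adjustment over all tested genes and calls at 0.05. Standard errors are the log2 fold change over the square root of F, and 95% intervals use the fit's degrees of freedom. The fit was tested on simulated data. Levels per kilobase use GENCODE M21 (GRCm38) merged exons, and ITIM matches the motif of that name in translated coding sequence. Log2 CPM used a prior count of 2. The 2 libraries of each group differed by more than sampling noise, so none was treated as a duplicate. CPM is per read in tested genes after TMM scaling. Members and lists were chosen with earlier results of these data known. Named genes were the members, from each list the 3 genes with the smallest p in PBS pDCs against Sirpa+ DCs and the 2 in YG+ against PBS pDCs, the 3 most correlated genes, Itgax and Ptprc; fewer are printed. Other called list members were named after their values were seen. Alternatives were RLE scaling, no TMM factor, other filters, DESeq2 1.42.0, limma-voom (limma 3.58.1), fits of 4 libraries, a replicate block, each library left out, and removal of Rn45s, Malat1, Xist and Tsix.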

Additional observations from a re-analysis of the deposited data

How the results depend on the processing

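The number of genes called in PBS pDCs against Sirpa+ DCs was 931 and fell to 580 with only the 4 libraries compared. For YG+ against PBS pDCs it was 0, against 141 with no filter on low counts and 45 with DESeq2. For YG+ pDCs against Sirpa+ DCs it was 583, against 894 with no filter and 1480 with 4 libraries. Leaving out each library in turn gave 214 (without Sirpa+ DC replicate 2) to 1297 (without PBS pDC replicate 2), 0 to 870 (without PBS pDC replicate 2) and 69 (without Sirpa+ DC replicate 1) to 1487 (without PBS pDC replicate 1), respectively. Of 224 alternative values, 206 kept their direction and side of the threshold, 8 reversed, 6 newly passed it and 4 no longer passed; the cause was not tested.

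In PBS pDCs against Sirpa+ DCs, the log2 fold change of Cd300a was -2.35 with limma-voom, and leaving out a library gave -2.61 to -2.36 for Cd300a, -1.80 to -1.05 for Sirpa and 0.24 to 1.50 for Ptpn6. In YG+ against PBS pDCs, Ptpn6 reversed to -0.0072 with RLE scaling, -0.0072 with DESeq2 and -0.00028 with 4 libraries (the median of all genes moved from 0.08 to 0.01 under each), and ranged from -0.42 to 0.82 with a library left out (-0.07 without YG+ pDC replicate 2); Cd47 ranged from -0.15 to 0.041 (without PBS pDC replicate 2). In YG+ pDCs against Sirpa+ DCs, the 4-library fit gave -0.94 for Sirpa (adjusted p = 0.05, edgeR) and 1.06 for Ptpn6 (0.0388), and leaving out a library gave 0.77 to 1.47 for Ptpn6 and -0.25 to 0.38 for Ptpn11 (-0.03 without Sirpa+ DC replicate 2). DESeq2 gave no adjusted p for Cd300a in YG+ against PBS pDCs. Where a group was left with 1 library, that library was assumed to vary like the others.

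Samples share a replicate number only: deviations of same-numbered libraries correlated at 0.298, -0.121 and -0.099 in the 3 pairs of groups. With a replicate block the counts of calls were 942, 0 and 635, the Cd300a value was -2.44 (adjusted p = 0.032, edgeR) and no call on the 5 genes changed. Depth limits Cd300a and Ptpn11 most, at 2 and 3 reads in PBS pDC replicate 1.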
